A study of Mus musculus with 2 samples.

Results

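Transcripts of 8 genes of arginine and polyamine metabolism, Arg1, Arg2, Odc1, Srm, Sms, Sat1, Amd1 and Oat, were followed in single cells of mouse urothelial organoids. They are 8 of the 31053 genes listed in the matrices. The set was selected on the level of Arg1, which earlier work on these data had found almost only in proliferative organoids, and on the place of the other 7 genes next to arginase in the pathway. The gap in Arg1 between the libraries is therefore given as a description, as is every other value here.

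Organoids had been grown from normal urothelium, the epithelium that lines the bladder, of WT C57BL/6 mice 8 to 10 weeks old. Proliferative organoids (P) stayed in complete medium. Differentiated organoids (D) were moved to a medium without WNT3A and RSPO1 conditioned media, EGF, LY2157299 (which blocks TGF-β receptor signalling) and Noggin. Both were dissociated, 10000 cells of each were loaded for droplet-based 10x sequencing, and 1 library was made per condition, so no difference has a replicate check and no p-value was computed.

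The filter kept cells with more than 800 genes detected and no more than 12% of their UMIs (unique molecular identifiers, each counting 1 captured RNA molecule) from mitochondria, 6818 of 8194 in P and 4896 of 6975 in D. They held 26681469 and 20305621 UMIs, with medians of 3405.5 and 3227.5 per cell. Levels are UMIs per 1000000 UMIs counted (CPM) over the kept cells, with exact 95% Poisson intervals that cover counting error only. The libraries shared 6 kept barcodes, and none of the D cells with an Arg1 UMI had one of them. The ribosomal protein share of UMIs was 37.4% in P against 21.4% in D, and the median of 8939 genes was higher in D by 0.42 on the log2 scale. Log2 ratios of D over P (log2 D/P) are therefore also given relative to that shift.

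Arginase splits arginine into urea and ornithine. Arg1 is the cytosolic form, best known from the urea cycle of the liver and from macrophages, and Arg2 is the mitochondrial form. Ornithine has several ways out. Ornithine decarboxylase (Odc1) makes putrescine from it, the first and a tightly controlled step of polyamine synthesis, while ornithine aminotransferase (Oat) leads toward glutamate and proline. S-adenosylmethionine decarboxylase (Amd1) supplies the aminopropyl groups with which spermidine synthase (Srm) and spermine synthase (Sms) build the longer polyamines. Sat1 acetylates spermidine and spermine, which marks them for breakdown or export. Polyamine synthesis is generally high in dividing cells.

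All 8 genes are protein-coding and were placed on GRCm38. Arg1 lies on chr10:24915221-24927484 on the minus strand and Arg2 on chr12:79130777-79156301 on the plus strand, where it overlaps Vti1b and an antisense gene on the other strand. Odc1 spans chr12:17544794-17551505, Srm chr4:148591503-148594993, Sms chrX:157443855-157492287 and Sat1 chrX:155213132-155216449. Amd1 spans chr10:40287458-40302186 and Oat chr7:132557478-132576398, where it overlaps Fgfr2 on the same strand. Amd1 has a near-identical copy, Amd2, and processed pseudogenes, and Sms has 1 processed pseudogene, so the counts of both are less certain than those of the others.

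RefSeq (GRCm38.p6) gave promoter windows of 250 bases before to 50 after the start site for 5 of the 8 genes, Odc1, Sms (2 windows), Sat1, Amd1 and Oat. The 250 upstream bases are shown for Odc1 and Sat1, which open and drain the polyamine pool and which differed in direction between Arg1-bearing and other cells below, and for the 1 window that held a motif searched, that of Sms. They are written 5′ to 3′ on the strand of the gene, from chr12:17544623-17544872 (plus), chrX:155216450-155216699 (minus) and chrX:157492288-157492537 (minus). Capitals mark the E-box CACGTG, the sequence bound by Myc and related factors.
Odc1: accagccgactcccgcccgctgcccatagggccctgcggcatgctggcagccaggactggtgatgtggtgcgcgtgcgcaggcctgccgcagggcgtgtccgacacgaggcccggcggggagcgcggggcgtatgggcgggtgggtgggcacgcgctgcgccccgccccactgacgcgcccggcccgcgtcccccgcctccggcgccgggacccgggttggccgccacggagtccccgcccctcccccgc
Sat1: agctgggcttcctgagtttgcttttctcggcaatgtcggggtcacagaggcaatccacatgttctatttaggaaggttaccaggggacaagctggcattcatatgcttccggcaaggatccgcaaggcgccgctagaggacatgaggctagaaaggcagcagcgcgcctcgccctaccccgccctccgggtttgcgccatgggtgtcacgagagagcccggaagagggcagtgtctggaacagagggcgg
Sms: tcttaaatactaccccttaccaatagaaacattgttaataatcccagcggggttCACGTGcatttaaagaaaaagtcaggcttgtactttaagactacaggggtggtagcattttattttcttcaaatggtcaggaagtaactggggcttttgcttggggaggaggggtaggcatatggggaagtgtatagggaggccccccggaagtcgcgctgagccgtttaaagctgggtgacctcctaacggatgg
The E-box in the Sms window starts 196 bases before the start site. Both strands of the windows were searched for CACGTG and for the AP-1 motif TGANTCA, and no other match was found in the windows of these 5 genes. Among all 32851 RefSeq windows, 7.15% held CACGTG and 7.81% TGANTCA. The upstream stretch of Odc1 was 80% G and C, that of Sat1 59.6% and that of the Sms window shown 47.2%. In the other Sms window, which held no match, it was 75.2%.

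Arg1 was a P transcript. It reached 8588 UMIs in P, or 322 CPM (315 to 329), and 27 UMIs in D, or 1.33 CPM (0.876 to 1.93), a level 242-fold higher in P (exact 95% interval of the ratio 166 to 368). An Arg1 UMI was found in 1803 P cells (26.4%) and in 22 D cells (0.449%). Within P the transcript was concentrated, since 324 cells (4.75%) held 50% of its UMIs, 236 cells held 10 or more and the richest cell held 42. The mitochondrial arginase was scarce in both libraries. Arg2 was counted 6 times in P, at 0.225 CPM (0.0825 to 0.489), and 20 times in D, at 0.985 CPM (0.602 to 1.52). Both values are close to the limit of detection.

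The genes that use ornithine or its products did not follow Arg1 between the libraries. Odc1 stood at 20.99 CPM (19.3 to 22.8) in P and 29.0 CPM (26.7 to 31.4) in D, a log2 D/P of 0.46 (0.29 to 0.63) that came to 0.04 after the shift of the median gene. Srm stood at 19.8 CPM in P and 23.1 CPM in D, a log2 D/P of 0.22 before and -0.20 after the shift. Sms stood at 39.5 and 52.2 CPM, a log2 D/P of 0.40 before and -0.02 after it, so that the direction of Srm and Sms turned with the scale. Oat, the route to glutamate and proline, was slightly lower in D on both scales, with 25.7 CPM in P and 22.5 CPM in D, a log2 D/P of -0.20 (-0.37 to -0.02) and of -0.62 after the shift.

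Sat1 and Amd1 were higher in D. Sat1, the acetyltransferase, stood at 1040 CPM (1028 to 1052) in P and 2404 CPM (2382 to 2425) in D, a log2 D/P of 1.21 (1.19 to 1.23), and was detected in 81.3% of P cells and 98.6% of D cells. Amd1 stood at 12.7 CPM (11.4 to 14.2) in P and 28.4 CPM (26.1 to 30.8) in D, a log2 D/P of 1.16 (0.96 to 1.35). After the shift these came to 0.79 for Sat1 and 0.74 for Amd1. Of the 7 genes of the set with at least 100 UMIs over both libraries, 1 (Arg1) was at least 2-fold higher in P, where 4.73% of 10719 genes were, and 2 (Sat1 and Amd1) passed 2-fold toward D, where 13.5% did. The members other than Arg1 with that many UMIs had a median log2 D/P of 0.43, against 0.42 for the median gene.

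**Figure D1:**
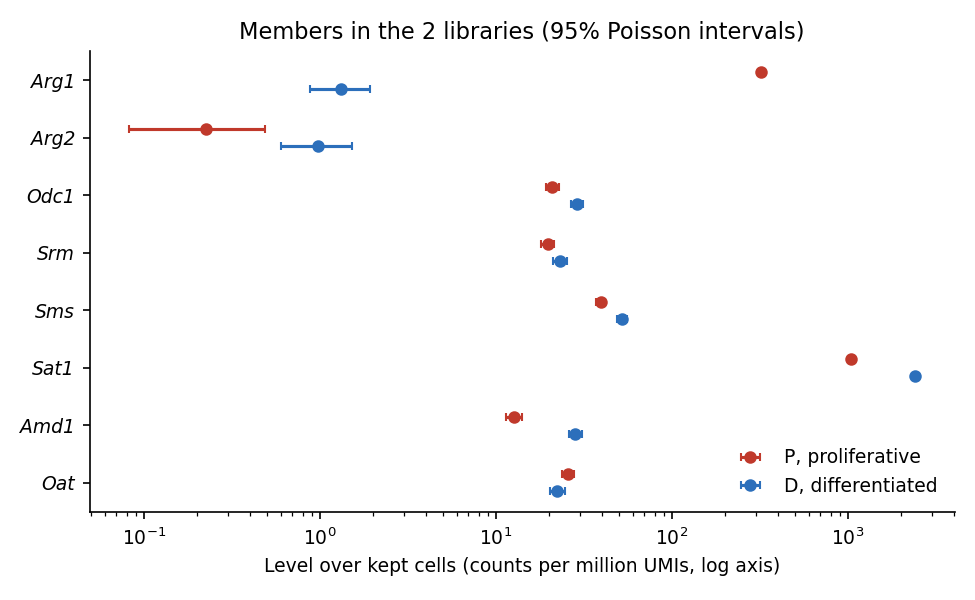
Level of each of the 8 genes in the P (red) and D (blue) library, in CPM on a log axis, with points for the summed level of the 1 library and bars for 95% Poisson intervals. Arg1 falls from 322 to 1.33 CPM between P and D while Odc1, Srm, Sms and Oat lie close together in both. Levels are to be read within a gene.

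Which P cells carried Arg1 was asked at equal depth, because deeper cells show a transcript more often. Each cell was thinned at random to 2100 UMIs, which left out 180 shallower cells of P and 479 of D. Of 6638 thinned P cells, 1344 (20.2%, exact binomial 95% interval 19.3 to 21.2%) held an Arg1 UMI and 813 (12.2%, 11.5 to 13.1%) held at least 2. These 813 cells are called carriers, and the 5294 cells with no Arg1 UMI non-carriers. In D, 8 of 4417 thinned cells (0.181%) held an Arg1 UMI and 1 held at least 2.

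P cells were clustered without the 8 genes and the other genes of the pathway list, which gave 4 clusters. Cluster 1 held 792 of the 813 carriers (97.4%). It was led by Sprr2f, Psca, Krt6b, Nccrp1 and AA467197, and all 9 intermediate-cell markers and 9 of the 10 detected squamous markers were higher in it than in the rest of P. Of its 2538 thinned cells, 1213 (47.8%, 45.8 to 49.8%) held an Arg1 UMI and 31.2% (29.4 to 33.0%) were carriers. Arg1 stood at 650 CPM there.

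The other clusters held little Arg1. In cluster 0, led by Htra1, Pltp, Col18a1, Tgfbi and Wnt10a and with 5 of 7 basal markers above the rest, 31 of 2464 thinned cells (1.26%) held an Arg1 UMI and none held 2 or more, which allows a share of up to 0.122% (3 counts of the total, the limit used below for every count of 0). These cells had a median of 2836 UMIs before thinning, against 4240 in cluster 1, and Arg1 stood at 7.48 CPM. Whether these UMIs came from the cells or from free RNA was not tested. Cluster 2, led by Slc7a11, Agr2, Ifitm1, Jag1 and Slc1a5, held a UMI in 6.80% of cells (5.49 to 8.31%). The dividing cells of cluster 3, led by Nusap1, Cenpf, Top2a, Cdk1 and Hist1h1b, held one in 3.52% (1.83 to 6.07%). Both shares lie above that of cluster 0, with 19 carriers in cluster 2 and 2 in cluster 3.

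**Figure D2:**
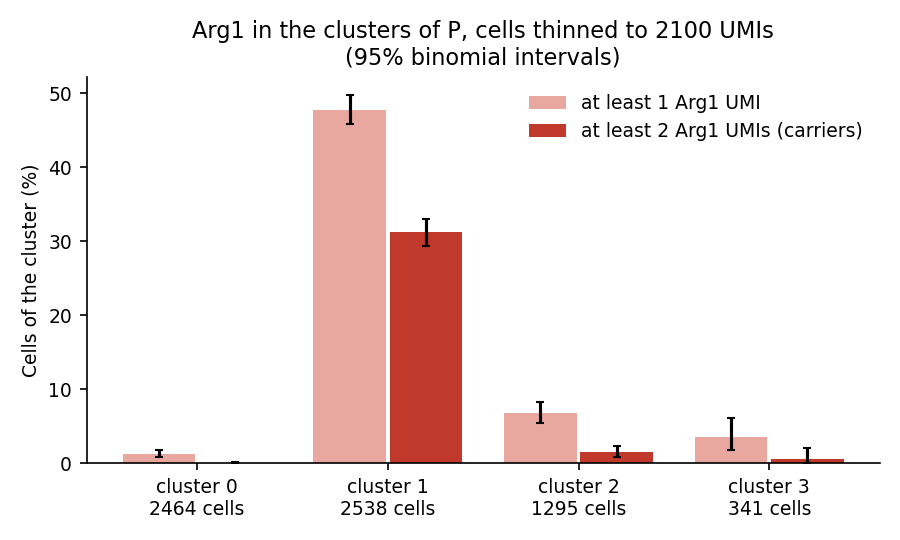
Share of thinned cells (2100 UMIs each) with at least 1 Arg1 UMI (pale bars) and with at least 2 (carriers, dark bars) in the 4 clusters of P, in percent from 0, with 95% binomial intervals. Cluster 1 stands at 47.8% and 31.2%, and the next highest, cluster 2, at 6.80% and 1.47%.

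In D, the 22 cells with Arg1 were 10 of cluster 0, led by Krt1, and 12 of cluster 2, led by Upk3a, which had all 5 uroplakins above the rest of D. Cluster 1 of D, led by Acta2, Htra1, Sparc, Ncam1 and Wnt10a, had none. In thinned cells that was 0 of 1028, which allows a share of up to 0.292%, against 5 of 682 (0.733%) in cluster 2 and 3 of 2707 (0.111%) in cluster 0. Clusters 0 and 1 could not be told apart at this depth, and both shares lay below the 1.26% (0.856 to 1.78%) of cluster 0 of P. The interval of cluster 2 of D (0.238 to 1.70%) included that 1.26%.

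Carriers stood high for intermediate and squamous markers and low for basal ones. The intermediate list summed to 14828 CPM in carriers and 3698 CPM in non-carriers, of which Psca alone gave 7715 and 500 CPM. Of its 9 genes, 5 were at least 2-fold higher, among them Psca, Cldn4, Cldn7 and Krt19. Foxq1, Krt18 and Tjp1 were higher by less than that, and Klf5 was near level, at 336 against 320 CPM. Beside the marker counts here and below, 5.5% of 7672 genes were at least 2-fold higher in carriers and 11.6% at least 2-fold lower. Of the 8 squamous and cornified genes with at least 100 UMIs, 6 were at least 2-fold higher, including Flg, the filaggrin precursor, at 750 against 74.0 CPM and Crnn, cornulin, at 362 against 45.2 CPM. The suprabasal keratin Krt10 and the envelope protein Lor went the other way, with 15.2 against 32.3 CPM and 1.17 against 14.8 CPM. The value of Lor rests on 2 UMIs in carriers, with a log2 ratio of -3.66 (-6.72 to -1.79). Of 7 basal markers, 5 were at least 2-fold lower in carriers, and Krt14 stood at 225 against 2413 CPM. Krt5 (2830 against 3534 CPM) and Cd44 (69.1 against 95.2 CPM) were lower by less than that. Of the 5 uroplakins, only Upk1a had at least 100 UMIs, at 32.8 CPM in carriers and 6.39 CPM in non-carriers. Upk1b stood at 5.86 against 4.77 CPM, and Upk2 and Upk3a had no UMI in carriers.

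Markers of the cells in which Arg1 is classically studied were almost absent. Of 12 macrophage and leukocyte genes, 10 had no UMI in carriers, including Ptprc (CD45), Adgre1 (F4/80) and Csf1r, and Itgam had 1. Of the 10, 7 had none in non-carriers either. The exception was Cd68, a lysosomal glycoprotein, with 97 UMIs in carriers, or 56.8 CPM, and 171 UMIs in non-carriers, or 15.4 CPM. All 5 hepatocyte, 5 fibroblast and 4 erythroid genes had no UMI in carriers. In non-carriers 4, 2 and 4 of these had none either, so most of the zeros are not particular to carriers. Of 3 endothelial genes, Pecam1 had 5 UMIs and the others none.

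Carriers rarely divided. All 12 proliferation genes were at least 2-fold lower in them, with a summed level of 32.2 against 327 CPM. With at least 2 of those 12 genes detected as the mark of a cycling cell, 4 carriers (0.492%) and 350 non-carriers (6.61%) were cycling. Hypoxia-responsive genes were mixed, with Bnip3 and Ankrd37 at least 2-fold higher in carriers, Vegfa at 139 against 80.6 CPM and Adm at 42.8 against 59.4 CPM. Ribosomal protein genes took 30.7% of the UMIs of carriers and 39.6% of those of non-carriers. Median depth before thinning was 4135 and 3289.5 UMIs. Cells with the highest doublet scores made up 3.32% of carriers and 6.33% of non-carriers. The part of cell type, depth and ribosomal share in the ratios that follow was not tested, apart from the comparisons within cluster 1 and among non-cycling cells.

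Over 6638 thinned P cells, 7907 genes were ranked by the correlation of their log-normalized values with Arg1. The closest were Psca, a GPI-anchored surface protein (Pearson r = 0.63), Sprr1a, a cornified envelope precursor (0.53), Mal, a raft protein of apical transport (0.51), and Gsto1, a glutathione transferase (0.48). Flg (0.44), Nccrp1 (0.43), Hopx (0.43), Pdzk1ip1 (0.42), the stress gene Nupr1 (0.42) and Fth1, the ferritin heavy chain (0.41), completed the first 10. At the other end stood Rpl12 (-0.41) and Krt14 (-0.41). All cells came from 1 library, and the correlations are a description.

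Of the 7 other members, Sat1 was the one near this group, at rank 24 of 7907 (r = 0.35). Odc1 ranked 6288 (r = -0.03), Srm 7260 (-0.05), Sms 7585 (-0.07), Amd1 4833 (-0.02) and Oat 7550 (-0.07). In such sparse counts the last 5 values are no finding either way.

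Most of the genes closest to Arg1 in P were also well detected in D, where Arg1 was nearly absent. Psca stood at 1875 CPM in P and 1742 CPM in D, Sprr1a at 690 and 806 CPM, and Hopx at 165 and 188 CPM. Mal was higher in D, at 564 against 248.9 CPM, and so was Nupr1, at 3355 against 921 CPM. Gsto1 was lower in D, at 2782 against 4159 CPM, as were Fth1, at 2465 against 3097 CPM, and Pdzk1ip1, at 130 against 141 CPM. The shift of the median gene toward D was not applied to these levels. Flg and Nccrp1 were nearly absent from D, like Arg1, with 5651 UMIs in P and 1 in D for Flg and 3389 and 15 for Nccrp1.

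Counts per cell are given as a description. Of 1593 thinned P cells with at least 2 Psca UMIs, 976 (61.3%, 58.8 to 63.7%) held Arg1, and of 2014 such D cells, 7 (0.348%, 0.140 to 0.715%) did. For Mal the counts were 427 of 598 P cells (71.4%) and 6 of 1220 D cells (0.492%), and for Hopx 240 of 331 (72.5%) and 1 of 324 (0.309%). These 3 genes and Sprr1a were taken from the list above after its values were seen. Their choice by correlation with Arg1 in the same P cells favours a high share in P. The share in D was bound to be low, since only 8 of 4417 thinned D cells held Arg1. The counts are therefore no second result beside the levels.

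Among the genes with the largest ratios of carriers over non-carriers were Psca of the intermediate list and Flg of the squamous list. Sprr2f had the highest, at 500 against 12.4 CPM, followed by AA467197 at 241 against 11.1 CPM, Psca, and Ltf, the secreted iron-binding protein lactoferrin, at 204 against 14.8 CPM. Mal, Hopx, Ppbp, Krt6b, Flg and the retinaldehyde dehydrogenase Aldh1a3 completed the first 10. Of these, Ppbp was also a leading gene of the uroplakin-rich cluster 2 of D. At the low end, Plod3, Ctnnal1, Agpat4, Hspg2, Cdca3, Irak1bp1 and Gprc5b had 103 to 177 UMIs in non-carriers and 0 in carriers, which allows up to 1.76 CPM. Flrt1, Sox6 and Cenpf had 1 or 2 UMIs in carriers.

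Whether polyamine genes followed Arg1 was then read inside P. Srm, Sms and Oat were at least 2-fold lower in carriers, and Sat1 was at least 2-fold higher. Odc1 stood at 21.05 CPM in non-carriers and 11.1 CPM in carriers, a log2 ratio of -0.92 (-1.68 to -0.24) from 19 UMIs in carriers. Srm stood at 24.7 and 7.61 CPM (-1.70, -2.63 to -0.90) and Sms at 50.01 and 15.8 CPM (-1.66, -2.28 to -1.10). Amd1 was at 13.3 and 7.61 CPM, and the interval of its ratio reached 0 (-0.81, -1.75 to 0.01). Oat had the lowest ratio, with 30.5 CPM in non-carriers and 7.61 CPM in carriers (-2.002, -2.93 to -1.21).

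Sat1 alone among the 6 members with at least 20 UMIs was higher in carriers, at 1936 CPM (1871 to 2004) against 762 CPM (746 to 778), a log2 ratio of 1.35 (1.29 to 1.40). Thinned D cells stood at 2429 CPM, so that on the CPM scale the Sat1 level of carriers lay between the other P cells and D. The shift of the median gene toward D, 0.42 on the log2 scale, was not applied here, and this order may turn with it. For Odc1, Srm, Sms and Oat, the carriers lay below the other P cells and D, with D cells at 29.5, 22.7, 49.4 and 22.6 CPM. Amd1 stood at 31.2 CPM in thinned D cells. Arg2 had 2 UMIs in non-carriers and 0 in carriers, too few for a ratio.

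Of these 6 members, 3 (Srm, Sms and Oat) were at least 2-fold lower in carriers, where 11.6% of 7672 genes were, and 1 (Sat1) was at least 2-fold higher, where 5.5% were. In either direction that is 4 of 6, beside 17.1% of genes. Their median log2 ratio was -1.29, and that of all genes -0.13. The size of the Odc1 ratio depended on which UMIs were drawn, since a second random draw gave -0.26. Counting all UMIs of the same cells, 43 in carriers and 458 in non-carriers, gave -1.09 (-1.58 to -0.64) for Odc1. On that count Srm stood at -1.79, Sms at -1.46, Oat at -1.73, Amd1 at -0.31 (-0.82 to 0.16) and Sat1 at 1.18.

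Within cluster 1 the contrast was smaller. Among its 792 carriers and 1325 non-carriers, counted with all UMIs because thinned counts were low, Odc1 was at 10.9 against 19.97 CPM, a log2 ratio of -0.87 (-1.41 to -0.36). Srm was at 6.24 against 13.9 CPM (-1.15, -1.87 to -0.49), Sms at 16.4 against 25.6 CPM (-0.65, -1.09 to -0.22) and Oat at 8.57 against 16.2 CPM (-0.91, -1.52 to -0.34). Sat1 was at 1874 against 1401 CPM (0.42, 0.38 to 0.46), and Amd1 at 10.7 against 9.75 CPM (0.13, -0.48 to 0.71). The thinned UMIs of the same cells gave intervals that included 0 for Odc1 (-0.67, -1.54 to 0.14), Srm (-0.88, -1.96 to 0.09), Sms (-0.34, -1.05 to 0.35) and Amd1 (-0.08, -1.18 to 0.96), but not for Oat (-1.05, -2.06 to -0.13) or Sat1 (0.43, 0.36 to 0.50). With all UMIs, all 6 ratios lay nearer to 0, or across it for Amd1, than those counted with all UMIs over all P cells.

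Counted with all UMIs, 1 of the 6 members (Srm) was at least 2-fold lower within cluster 1, where 0.906% of 6735 genes were, and none was at least 2-fold higher, where 1.22% were. The median of the 6 was -0.76, and that of all genes -0.03. Clusters 2 and 3 held too few carriers for the same reading. With cycling cells left out, the ratios over P were -0.80 for Odc1, -1.69 for Srm, -1.599 for Sms, -1.88 for Oat and 1.30 for Sat1.

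**Figure D3:**
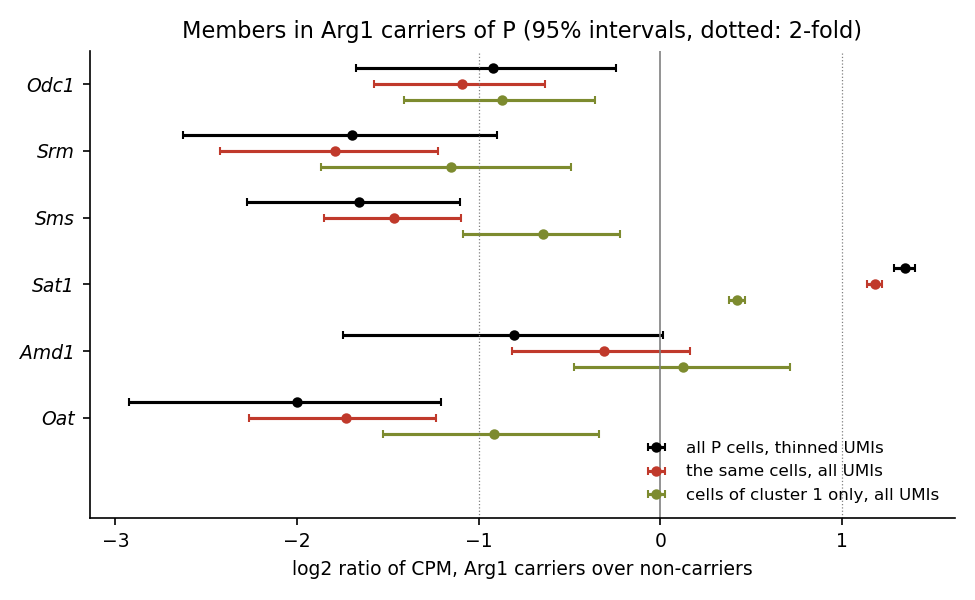
Log2 ratio of the level in Arg1 carriers over non-carriers of P for 6 members, from thinned UMIs (black), from all UMIs of the same cells (red) and from cells of cluster 1 only (green), with 95% intervals and dotted lines at 2-fold. Odc1, Srm, Sms and Oat lie below 0 and Sat1 above 0 in all 3 readings, and Amd1 has intervals that reach 0.

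Levels also differed with the amount of Arg1. Sat1 was higher in each of the classes of 0, 1, 2 to 3, 4 to 7 and at least 8 Arg1 UMIs than in the one before, at 762, 1533, 1829, 2034 and 2195 CPM, with intervals that did not overlap between the first 3 classes. The classes differ in clusters, since cluster 1 held 1325 of the 5294 cells with no Arg1 UMI but 792 of the 813 carriers. Those 1325 cells alone stood at 1456 CPM of Sat1. The part of the clusters in the steps between classes was not tested. Odc1 went from 21.05 CPM to 17.0, 13.7, 8.50 and 5.81 CPM, the last from 1 UMI. Oat went from 30.5 CPM to 17.9, 10.6 and 5.10 CPM and had no UMI in the 82 cells of the highest class, which allows up to 17.4 CPM.

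Srm and Sms did not keep to this order at the top. Srm went from 24.7 to 3.40 CPM over the first 4 classes and stood at 17.4 CPM (3.59 to 50.9) in the highest. Sms went from 50.01 to 6.80 CPM and then stood at 34.8 CPM (12.8 to 75.8). The highest class held 3 UMIs of Srm and 6 of Sms. Amd1 was highest in the class with 1 Arg1 UMI, at 19.7 CPM (12.4 to 29.9), against 13.3 CPM (11.3 to 15.6) in cells with none.

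**Figure D4:**
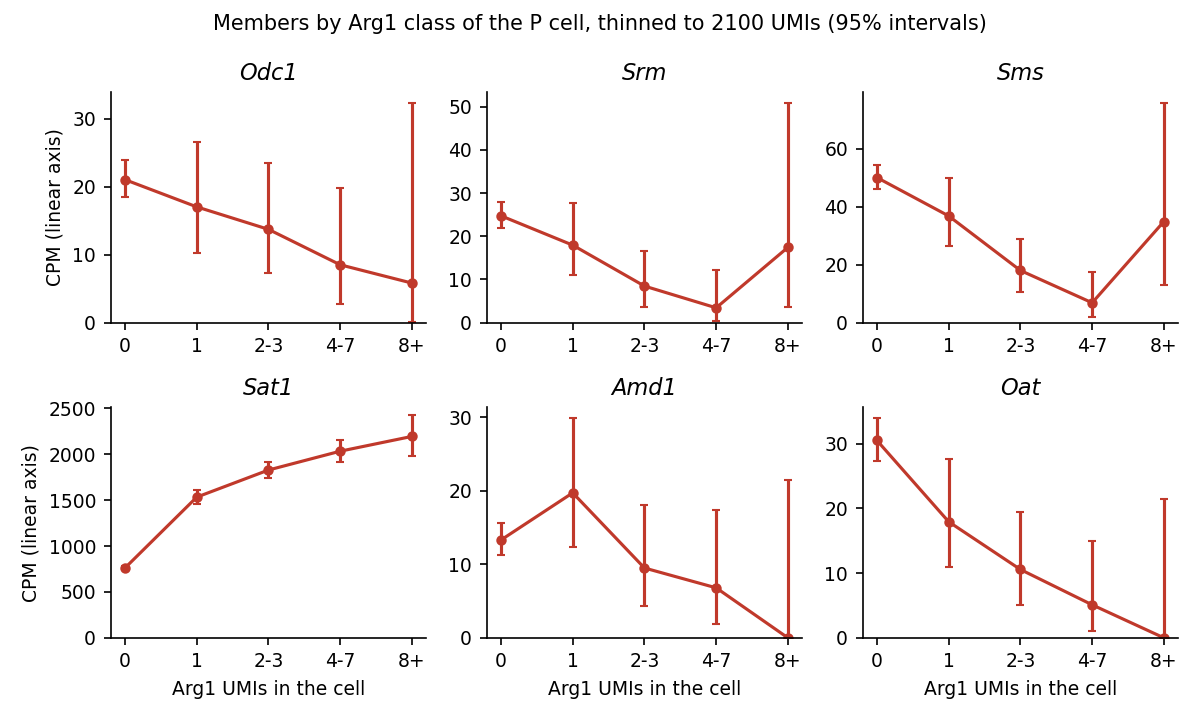
Level of 6 members (CPM on linear axes from 0) in P cells grouped by their number of Arg1 UMIs after thinning, with 95% Poisson intervals, for 5294, 531, 451, 280 and 82 cells from left to right. Sat1 goes from 762 to 2195 CPM, Odc1 and Oat are lower in each of the first 4 classes than in the one before, and the wide bars of the last class rest on 6 UMIs or fewer for every gene except Sat1.

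Across clusters, Odc1 and Oat were highest among the dividing cells of P and the basal-marker cluster of D. In the dividing cluster 3 of P, Odc1 stood at 50.5 CPM, against 24.2 CPM in cluster 0, 17.5 CPM in cluster 1 and 14.7 CPM in cluster 2. Oat followed the same order at its top, with 67.3 CPM in cluster 3 and 40.3 CPM in cluster 0, and then 18.9 CPM in cluster 2 and 13.8 CPM in cluster 1. Srm was lowest in the Arg1-rich cluster 1, at 11.5 CPM, and lay between 23.6 and 29.4 CPM in the others. Sms was lowest there as well, at 22.4 CPM, against 44.0 to 64.2 CPM.

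Sat1 had the opposite order, with 1589 CPM in cluster 1, 782 CPM in cluster 2, 433 CPM in cluster 0 and 402 CPM in cluster 3. Cluster 1 over cluster 0 gave a log2 ratio of 1.88 (1.82 to 1.93) for Sat1 and of -1.55 (-1.82 to -1.28) for Oat. Scored by cycling mark instead of cluster, the 367 cycling cells of P had 41.5 CPM of Odc1 against 18.2 CPM in the other 6271. Oat was at 64.9 against 24.5 CPM and Sms at 79.1 against 42.8 CPM. Srm (24.7 against 21.9 CPM) and Amd1 (14.3 against 13.1 CPM) differed by less than their intervals. Sat1 was lower in cycling cells, at 394 against 1001 CPM, and Arg1 too, at 28.5 against 289 CPM.

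In D the steepest gradient was that of Oat. It stood at 63.6 CPM in the Acta2-led and basal-marker cluster 1, 14.1 CPM in the Krt1-led cluster 0 and 4.89 CPM in the uroplakin-rich cluster 2, a log2 ratio of -3.70 (-4.50 to -2.99) between clusters 2 and 1. Amd1 was also highest in cluster 1, at 44.5 CPM against 24.3 and 24.5 CPM in clusters 0 and 2. Odc1 stood at 42.0 CPM in cluster 1, 32.8 CPM in cluster 2 and 23.7 CPM in cluster 0. Sms ranged from 38.0 CPM in cluster 2 to 67.5 CPM in cluster 1, and the intervals of Srm overlapped in all 3 clusters. Sat1 varied little, between 2065 and 2510 CPM. Besides its basal markers, cluster 1 of D had all 11 detected proliferation genes above the rest of D. Of its thinned cells 1.36% were cycling, against 0.148% in cluster 0 and 0% in cluster 2.

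The Wnt10a-led clusters, cluster 0 of P and cluster 1 of D, allowed a closer comparison of the conditions in cells with basal markers, although different genes lead them beside Htra1 and Wnt10a. Sat1 stood at 433 CPM in P and 2065 CPM in D there, a log2 D/P of 2.25 (2.20 to 2.31), and Amd1 at 17.5 and 44.5 CPM (1.35, 1.02 to 1.68). After the shift these came to 1.83 and 0.92. The shift is that of the whole libraries, and none was computed for these clusters alone. Ribosomal protein genes took 40.7% of UMIs in cluster 0 of P and 21.7% in cluster 1 of D. Odc1 stood at 24.2 and 42.0 CPM, a log2 D/P of 0.80 before and 0.37 (0.07 to 0.68) after the shift. Oat stood at 40.3 and 63.6 CPM, a log2 D/P of 0.66 (0.42 to 0.90) before and 0.24 (-0.01 to 0.48) after it. Srm (29.4 and 27.1 CPM) and Sms (59.3 and 67.5 CPM) had intervals that included 0 before the shift and lay below 0 after it.

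**Figure D5:**
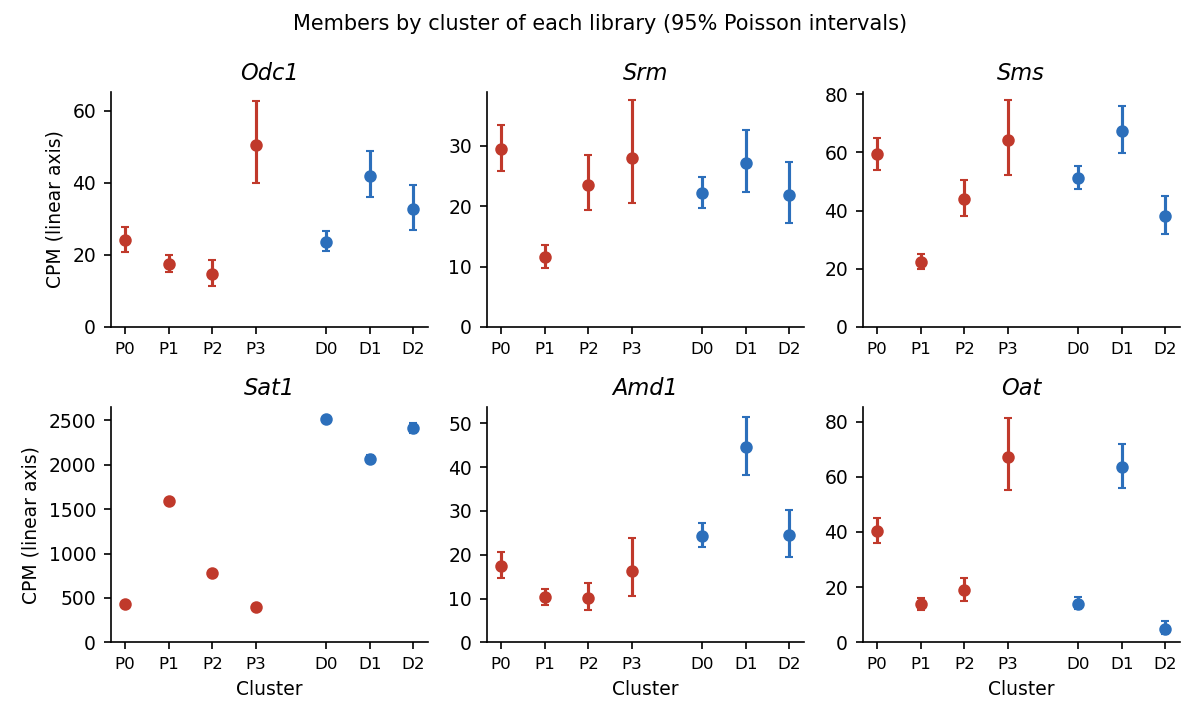
Level of 6 members (CPM on linear axes from 0) in clusters 0 to 3 of P (red) and 0 to 2 of D (blue), with 95% Poisson intervals for summed UMIs of 1 library each. Oat and Odc1 peak in the dividing cluster 3 of P and the basal-marker cluster 1 of D, while Sat1 is above 2000 CPM in every D cluster and reaches 1589 CPM in cluster 1 of P.

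The wider pathway was read from a list of 46 further genes. A urea cycle was not detected as transcripts, since Cps1 had no UMI in either library, and Otc and Nags had 1 UMI each in D and 0 in P. Ass1, which builds argininosuccinate, and Asl, which releases arginine from it, were present, with Ass1 at 33.9 CPM in P and 28.0 CPM in D and Asl at 16.6 and 28.9 CPM. The nitric oxide synthases Nos1, Nos2 and Nos3, which compete for arginine, had at most 5 UMIs in a library. Gatm, the first enzyme of creatine synthesis, had 1 UMI in D.

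Between the libraries, 8 of the 29 list genes with at least 100 UMIs passed 2-fold toward D and 2 toward P, beside 13.5% and 4.73% of all genes. Relative to the shift of the median gene, the 8 log2 ratios were 0.65 to 0.94 and none passed 2-fold toward D. On that scale 3 genes (Paox, Myc and Azin2) passed 2-fold toward P, and the share of all genes was not computed. Among the 8 were Mat2a (57.8 CPM in P and 149 CPM in D), which makes S-adenosylmethionine, and 3 genes of the methionine salvage route that recycles the by-product of Srm and Sms, Mtap (31.4 and 77.8 CPM), Apip and Enoph1. Azin1, which shields Odc1 protein from antizyme, Amd2 and Atp13a2, a lysosomal polyamine exporter, were also among them. Higher in P were Paox, which oxidizes the acetylated polyamines that Sat1 makes, at 33.0 CPM in P and 9.75 CPM in D, and Myc, a known activator of Odc1, at 30.02 and 11.03 CPM. The median log2 D/P of the 34 list genes with at least 20 UMIs was 0.67, against 0.42 for the median gene.

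In carriers, 6 of the 26 list genes with at least 100 UMIs were at least 2-fold lower and 1 was at least 2-fold higher, beside 11.6% and 5.5% of all genes. Lower were Ass1 (18.2 CPM in carriers and 40.5 CPM in non-carriers), the arginine transporter Slc7a1 (10.5 and 31.5 CPM), Amd2 (2.93 and 11.8 CPM), Mri1 and Apip of methionine salvage, and Myc (15.2 and 34.2 CPM). Higher was Smox, spermine oxidase, at 36.9 CPM in carriers and 16.4 CPM in non-carriers, a log2 ratio of 1.17 (0.74 to 1.59). The 31 list genes with at least 20 UMIs had a median of -0.48, against -0.13 for the 7672 genes with at least 100 UMIs. The antizyme gene Oaz1, at 432 against 502 CPM, and Eif5a, whose protein carries the spermidine-derived residue hypusine, at 330 against 374 CPM, differed little.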

How the data were processed

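Single-cell transcriptomes of P and D organoids were measured with the 10x v3 chemistry, 1 library each. Per the labels, the authors used bcl2fastq 2.19.0 and Cell Ranger 3.0.2 with GRCm38/mm10, and deposited raw UMI counts per gene and barcode. Cells were filtered after the study's rule (over 800 genes, at most 12% mitochondrial UMIs); admitting exactly 800 genes gives 6826 P cells instead of 6818, so the study's P set may differ slightly. UMIs were summed over cells and scaled to 1000000. Intervals are 95%, exact Poisson for levels, Clopper-Pearson for shares and conditional binomial for ratios. Cells were not used as replicates and no test was run. A gene counted as different at 2-fold, with at least 100 UMIs over both groups. List medians used genes with at least 20 UMIs.

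Cells were thinned to 2100 UMIs with a fixed seed. Clusters came from Seurat 5.3.0 in R 4.3.3 (2000 variable features less the listed genes, 25 components in P and 21 in D, resolution 0.2). The ratios and their intervals were tested on simulated counts, and the thinning on cells of P. Doublets were kept, because Scrublet (scanpy 1.11.5) set a threshold that marked 0 cells in both libraries. An alternative removed the 6% of cells with the highest scores.

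Named genes were the 8 members, pathway genes at least 2-fold different, the 10 genes most correlated with Arg1, the 10 largest ratios in each direction (0.5 UMI added for ranking), the 5 leading genes of each P cluster and marker genes. Pathway genes at the ends of the arginine route and leading genes of D clusters fall outside this rule. An item of the pathway list is not reported here. The members and lists were chosen with earlier results of these data known. Alternatives changed the thinning, seed, scale, filter, clustering resolution and carrier threshold.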

Additional observations from a re-analysis of the deposited data

Results flagged for a closer look

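The barcodes that failed the filter, 1376 in P and 2079 in D, entered no comparison above, and members were detected in them above what a count of 0 allows. Values are UMIs per 1000000 non-mitochondrial UMIs. In P the left-out barcodes held 206 of Arg1 (186 to 227), against 342 in kept cells, 23.6 of Odc1, 21.6 of Srm, 52.2 of Sms, 841 of Sat1, 16.6 of Amd1 and 35.6 of Oat. In D they held 60.8 of Odc1 (50.7 to 72.4), against 31.2 (28.7 to 33.8) in kept cells, and 17.4 of Srm, 62.7 of Sms, 2943 of Sat1, 35.2 of Amd1 and 16.4 of Oat. Arg1 stayed at 3 UMIs in the left-out barcodes of D, so that its near absence from D did not rest on the filter.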

How the results depend on the processing

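Each condition had 1 library, so depth limits single genes (13 to 27 UMIs of the synthesis genes and Oat in thinned carriers) and culture-to-culture spread is unknown. No paired analysis was possible because each group held 1 library and no test was run. The direction of D over P turned for Srm to -0.11 when mitochondrial and ribosomal protein genes were dropped and to -0.20 under median ratio scaling, and for Sms to -0.018 under the latter. Both scales left 0 members at least 2-fold higher in D, in place of 2. The share of all genes past 2-fold was not computed on these scales. The share of P cells called carriers, 12.2%, was 20.2% at 1 UMI and 8.17% at 3 UMIs, 9.24% at 1500 and 20.9% at 3000 UMIs per cell, 18.5% unthinned and 14.8% under the stricter filter. The median ratio of the 6 members in carriers, -1.29, was -0.85 at 1 UMI, -1.01 at 3000 UMIs, -0.94 unthinned and -0.87 with a second seed. Within cluster 1 it was -0.76 with all UMIs and -0.50 with thinned UMIs, with 1 member at least 2-fold different in place of 4, Srm with all UMIs and Oat with thinned UMIs, where it had under 100 UMIs, and Amd1 turned to 0.13 with all UMIs. Arg1 reached 1017 CPM in its top cluster at resolution 0.4, in place of 650. Counting all UMIs, staying within cluster 1 and removing the highest doublet scores were chosen after seeing the data. Over 13 other readings of the carrier ratio, Odc1 ranged from -1.70 to -0.26, Srm from -2.17 to -0.88, Sms from -1.93 to -0.34, Oat from -2.31 to -0.91 and Sat1 from 0.42 to 1.40, each with 1 sign. A mean over thinned cells equals the main value by construction and is not among them. The cause of these moves was not tested.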
